A study of Mus musculus with 9 samples.

Results

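Genes of cholesterol and lipid handling were followed in RNA sequencing of mouse spleen. The members are 8 genes chosen by name, out of 21965 gene identifiers counted in each library. They are Apoe, the transporters Abca1 and Abcg1, the receptor Lrp1, the lipase Lpl, the lipid droplet protein Plin2, and the transcription factors Nr1h3 and Srebf2. Apoe was lower in both sexes of the cross BWF1 than in BALB/c females, and Lrp1 was higher in BWF1 males than in either female group. The Lrp1 difference did not pass the test in 11 of 21 alternative settings against BWF1 females and in 6 of 21 against BALB/c females.

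Macrophages take up cholesterol with lipoproteins and with the remains of dead cells, and the spleen is one of the organs where they clear red cells and apoptotic lymphocytes. Surplus sterol turns on the liver X receptors, among them LXRα, the product of Nr1h3, which raise the efflux genes Abca1, Abcg1 and Apoe. Scarce sterol releases SREBP-2, the product of Srebf2, which raises the genes of cholesterol synthesis and the LDL receptor. Lrp1 binds apolipoprotein E and many other ligands and takes them into the cell.

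The study had 3 groups of 3 mice each, all 16 weeks old, namely females of BWF1, males of BWF1 and females of BALB/c. BWF1 is the first-generation cross of the strains NZB and NZW, in which the females are prone to a lupus-like disease, and the series' title calls the other groups not prone to it. No treatment, transgene or deletion is named in any group. BWF1 females differ from BWF1 males in sex and from BALB/c females in strain. BWF1 males differ from BALB/c females in both at once, so in that comparison the effects of sex and strain cannot be told apart. The source of the RNA is given in conflicting ways: the text on the whole series names splenocytes, but the entries of single samples name macrophages that carry CD11b and F4/80, taken by flow sorting after collagenase digestion.

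Counts were shallow and uneven. Between 458608 and 4305003 counts fell in genes per library, and 42.3% to 76.6% of them belonged to 1 gene, Lars2. Levels are counts scaled to a common library size (CPM, with TMM factors), and 3 counts stood for 0.625 to 6.62 CPM on that scale. The 9 macrophage genes chosen to check the sort (among them Adgre1, which encodes F4/80, and Itgam, which encodes CD11b) summed to 176 to 541 CPM, whereas 8 B cell genes summed to 2022 to 3114 CPM. All 9 macrophage genes and all 8 B cell genes had counts. In such mixed RNA, fewer cells of a type and less RNA per cell cannot be told apart.

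Promoter sequences that were searched for elements of sterol control are shown first, from RefSeq promoters on GRCm38.p6. They are given for the members that passed the test in a comparison (Apoe and Lrp1), for the best known LXR target (Abca1) and for the sterol factor itself (Srebf2). Each runs 5′ to 3′ up to the base before the annotated gene, and capitals mark a match discussed after them. They are those of the reference genome, and the alleles of NZB, NZW and BALB/c were not analysed here.
Apoe, chr7:19699189-19699438, minus strand: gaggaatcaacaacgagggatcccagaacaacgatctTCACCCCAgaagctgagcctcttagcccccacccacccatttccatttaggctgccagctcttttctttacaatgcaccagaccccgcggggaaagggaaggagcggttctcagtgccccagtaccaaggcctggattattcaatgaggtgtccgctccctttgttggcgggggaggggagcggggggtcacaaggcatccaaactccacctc
Lrp1, chr10:127621149-127621398, minus strand: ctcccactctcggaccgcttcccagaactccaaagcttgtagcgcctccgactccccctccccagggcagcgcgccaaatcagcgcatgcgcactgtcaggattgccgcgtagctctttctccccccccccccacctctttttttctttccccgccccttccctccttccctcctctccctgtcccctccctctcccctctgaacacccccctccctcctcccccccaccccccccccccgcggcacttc
Abca1, chr4:53159896-53160145, minus strand: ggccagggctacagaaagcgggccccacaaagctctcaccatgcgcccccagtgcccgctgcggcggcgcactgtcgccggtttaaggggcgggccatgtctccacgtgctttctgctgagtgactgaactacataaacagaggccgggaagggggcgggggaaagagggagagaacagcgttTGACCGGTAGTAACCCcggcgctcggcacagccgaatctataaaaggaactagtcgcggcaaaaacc
Srebf2, chr15:82147019-82147180, plus strand: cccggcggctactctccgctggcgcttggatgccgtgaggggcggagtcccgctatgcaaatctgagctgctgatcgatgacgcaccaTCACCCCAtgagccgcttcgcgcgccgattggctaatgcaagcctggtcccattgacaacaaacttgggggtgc

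Motifs were searched on both strands from 250 bases before to 50 bases after each start, for the 6 of 8 members in the promoter table, in 9 windows. The core of the sterol regulatory element, TCACCCCAC, was in no member's window, and in 0.551% of all 32851 promoters. Its shortened form TCACCCCA, searched after the sequences had been seen, was in the windows of Apoe and Srebf2, where the capitals stand, and in 1.56% of all promoters. It begins 213 bases before the RefSeq start in Apoe and 162 bases before that of Srebf2. The LXR element of the DR4 type was in no member's window and in 0.231% of all promoters. A looser DR4 with any first base in each repeat, also searched afterwards, matched Abca1 once, beginning 67 bases before the start, and 0.621% of all promoters. The capitals in Abca1 mark it. Neither the sterol element nor the DR4 element was found in the Lrp1 window in any of these forms. The GC box GGGCGG was in the windows of Abca1, Lrp1, Plin2 and Srebf2, and in 35.7% of all promoters. The CCAAT box CCAAT was in those of Plin2 and Srebf2, and in 37.4% of all promoters. The E box CACGTG was in those of Abca1 and Plin2, and in 7.15% of all promoters. The searched letters may overlap one another in a window, and a match is a description of the sequence only.

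Srebf2 also carries a microRNA. The gene Mir33 lies within Srebf2 on the same strand and shares 0 of its exon bases, and its product miR-33 is known to lower Abca1. It was not measured here. The mature miR-33-5p of RefSeq, with its seed (bases 2 to 8) in capitals, is shown with the stretches of the Abca1 and Abcg1 3′ untranslated regions that hold its seed match CAATGCA, in capitals there.
miR-33-5p, chr15:82198127-82198147, plus strand: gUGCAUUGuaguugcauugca
Abca1, chr4:53033786-53033815, minus strand: cactattCAATGCAATGCActtCAATGCAa
Abcg1, chr17:31114990-31115019, plus strand: actaacgcaacgCAATGCAacgCAATGCAg

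The match was present 3 times in the 3156 bases of the Abca1 region, with overlap between the first 2, and 2 times in the 3703 bases of the Abcg1 region. It was present 0 times in those of the other 6 members. Of 20983 mouse genes with such a region, 7.11% had at least 1 match, 0.653% at least 2 and 0.0667% at least 3.

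Levels were compared between genes per kb of exon. The order over the 9 libraries began with Apoe at 39.4 CPM per kb, followed by Srebf2 at 26.0, Abca1 at 10.5 and Abcg1 at 10.04 CPM per kb. Lrp1 stood at 4.34, Plin2 at 3.33, Nr1h3 at 1.65 and Lpl at 0.383 CPM per kb. The step between Srebf2 and Abca1 was the one step in this order at which the ranges of neighbours did not overlap. Srebf2 and Abcg1 were each above their next lower neighbour in 9 of 9 libraries. Abca1 was above Abcg1 in 4 of 9, so that these 2 transporters did not differ beyond their spread. Apoe was above Srebf2 in 7 of 9 libraries, Lrp1 above Plin2 in 6 of 9, Plin2 above Nr1h3 in 8 of 9 and Nr1h3 above Lpl in 7 of 9. The order changed with the group: Abcg1 averaged 12.5 and Abca1 10.45 CPM per kb in BWF1 males, Plin2 3.94 and Lrp1 3.43 CPM per kb in BALB/c females, and Nr1h3 3.13 and Plin2 2.19 CPM per kb in BWF1 females.

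**Figure D1:**
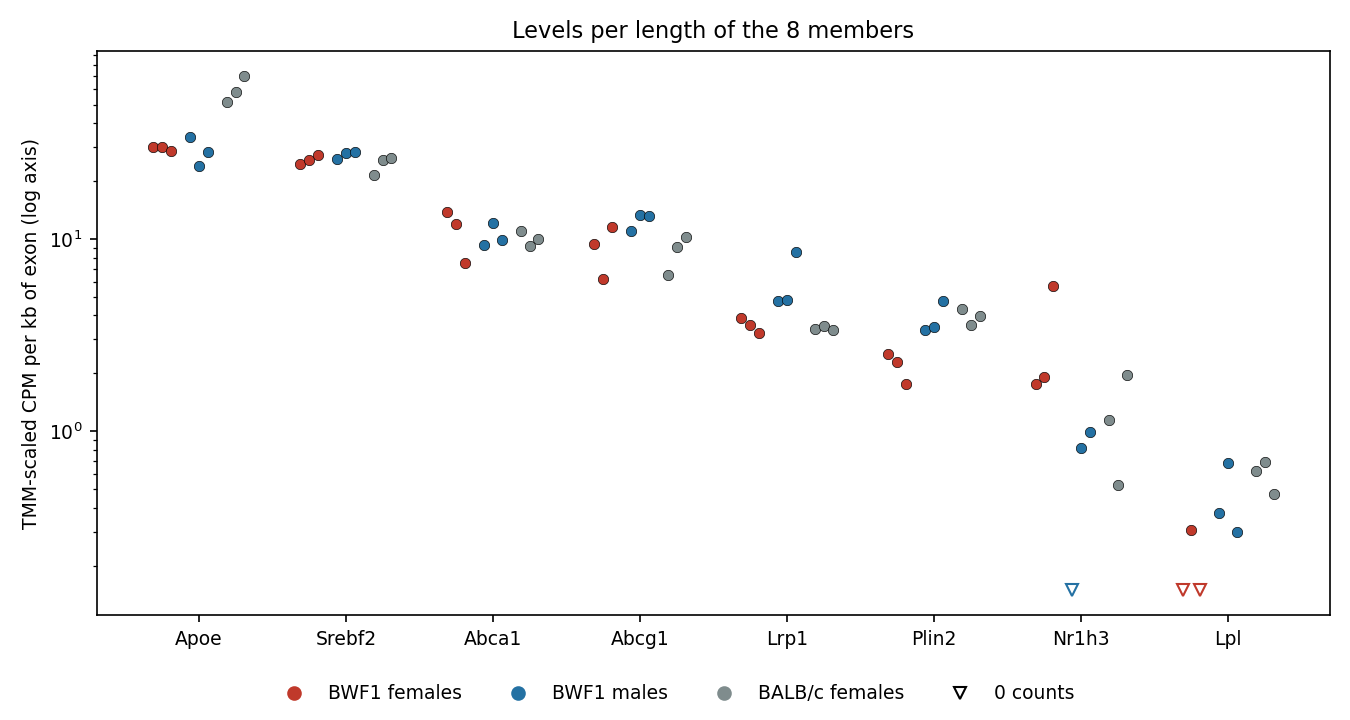
TMM-scaled CPM per kb of exon on a log axis for the 8 members, from the highest to the lowest mean. Each point is a library, coloured by group, and open triangles at the foot of the axis mark libraries with 0 counts. Apoe and Srebf2 lie at the top, with the 3 BALB/c points of Apoe apart from its 6 BWF1 points, and Nr1h3 and Lpl lie at the bottom with counts of 0 in 1 and 2 libraries.

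Apoe encodes apolipoprotein E, the protein with which macrophages load cholesterol for export and by which particles are recognised by receptors of the LDL receptor family. The gene (ENSMUSG00000002985) spans chr7:19696109-19699188 on the minus strand of mm10. Apoe had 64.0, 64.5 and 61.6 CPM in the BWF1 females, 72.6, 51.3 and 60.2 CPM in the BWF1 males and 110.7, 123.5 and 149.7 CPM in the BALB/c females. All 6 BWF1 libraries lay below all 3 BALB/c libraries, and the BWF1 sexes overlapped. The means were 63.4 ± 1.56 CPM in the BWF1 females, 61.3 ± 10.7 CPM in the BWF1 males and 128.0 ± 19.9 CPM in the BALB/c females (SD, n = 3 each).

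Apoe fell in BWF1 females against BALB/c females, with a log2 fold change of -1.01 (SE 0.18), a ratio of 0.496. By edgeR's quasi-likelihood test with Benjamini-Hochberg adjustment over 7719 tested genes the adjusted p was 0.00119. In BWF1 males against BALB/c females it fell by 1.07 on the log2 scale (SE 0.18), a ratio of 0.477, with an adjusted p of 0.00047. Between BWF1 females and BWF1 males the log2 fold change was 0.06, with a 95% interval of -0.33 to 0.44. Both calls against BALB/c were kept under all 21 alternative settings, with log2 fold changes of -1.30 to -0.88 in females and -1.57 to -0.93 in males. All BALB/c libraries carried 1 of the 2 tags found in the file names, whose meaning the labels do not give. Within that tag the single BWF1 female library stood at a log2 ratio of -0.99 to the 3 BALB/c libraries and the single BWF1 male library at -1.32. BWF1 females and males within the other tag, 2 libraries each, averaged 62.8 and 66.4 CPM.

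A list of 10 genes induced by handling of cells (Fos, Jun, Hspa1a and others) moved with Apoe. Its summed level was 622 to 755 CPM in the BWF1 females, 711 to 912 CPM in the BWF1 males and 1493 to 2870 CPM in the BALB/c females. Of its 10 genes, 9 were lower in the females of BWF1 than in those of BALB/c, and 4 were lower in BWF1 males than in BALB/c females, in the same test. B cell genes summed to 2022 to 2259 CPM in the BWF1 females, 2144 to 2731 CPM in the BWF1 males and 3044 to 3114 CPM in the BALB/c females. Within the BALB/c group the order differed: Apoe was highest in library 3 and the handling genes in library 2. Erythroid genes followed Apoe only in part. They summed to 581 to 1714 CPM in the BWF1 females, 124 to 790 CPM in the BWF1 males and 1090 to 3116 CPM in the BALB/c females. Of their 7 tested genes, 7 were lower in males of BWF1 than in BALB/c females, and 0 were called in BWF1 females against BALB/c females (median log2 fold change -0.66). In BWF1 females against BWF1 males, where Apoe was not called, 1 of the 7 was called higher, at a median of 2.05. The macrophage sum did not follow Apoe, with 176 to 222 CPM in the BWF1 females, 324 to 541 CPM in the BWF1 males and 286 to 339 CPM in the BALB/c females. The part of these lists in the Apoe difference was not tested.

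**Figure D2:**
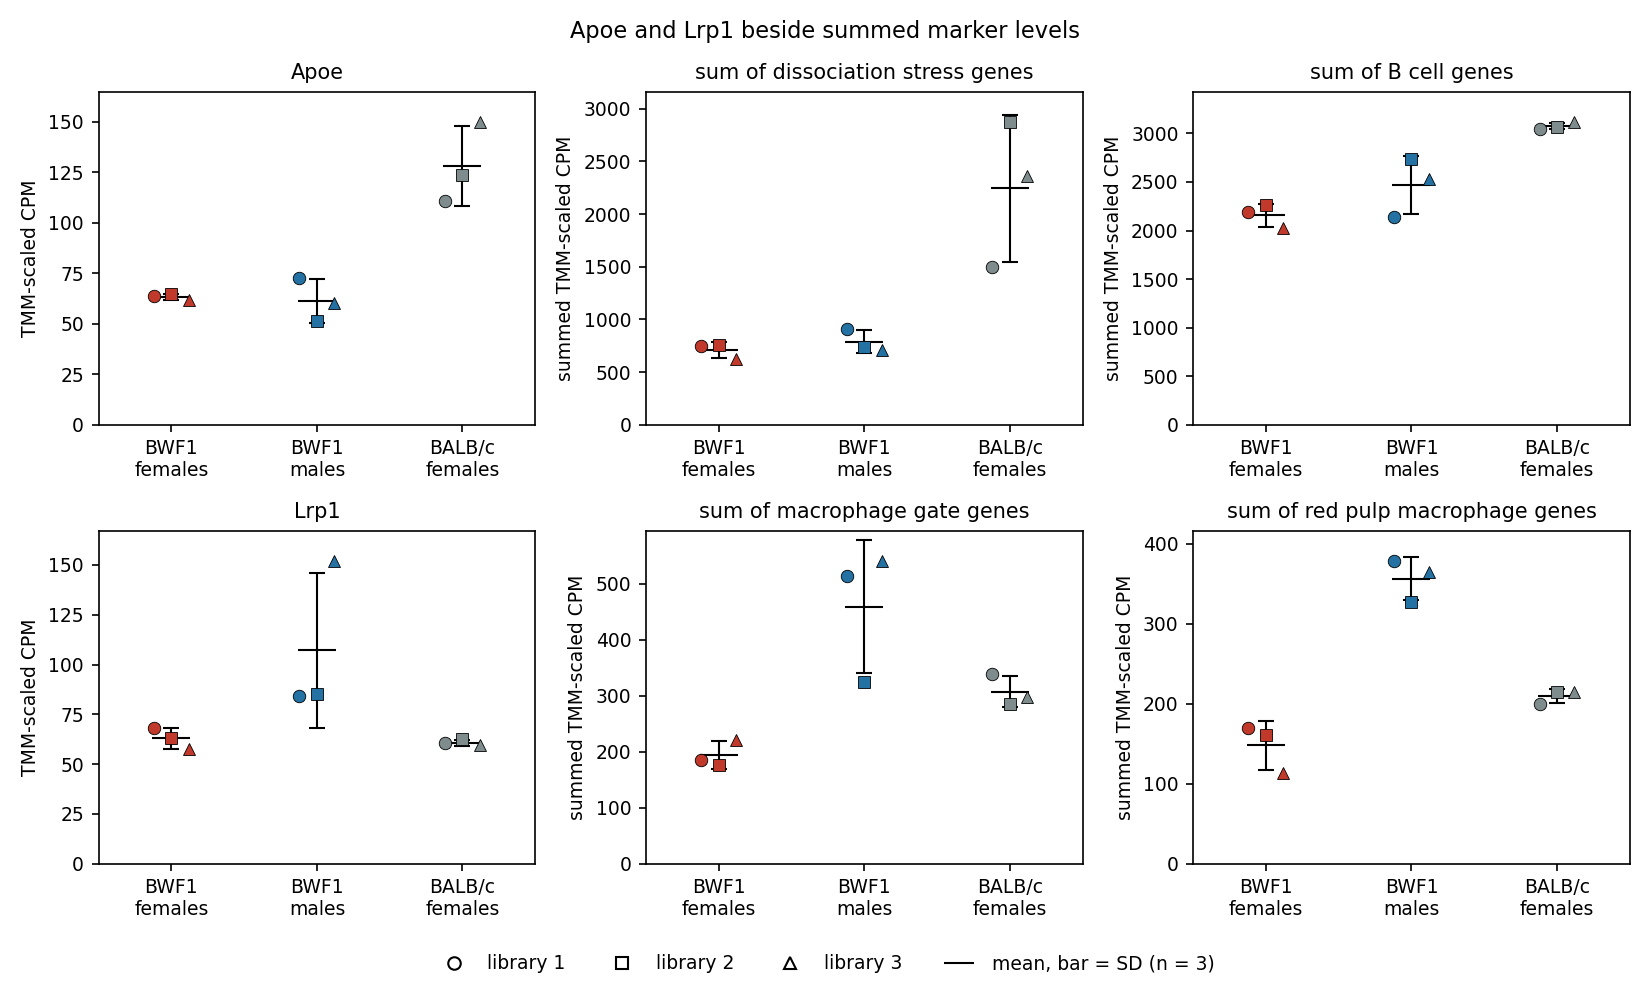
Upper row: Apoe, the summed dissociation stress genes and the summed B cell genes. Lower row: Lrp1, the summed macrophage gate genes and the summed red pulp macrophage genes. All are in TMM-scaled CPM for each library, with the mean and SD (n = 3). Both BWF1 groups lie below BALB/c females for Apoe and the stress genes (1493 to 2870 CPM in the BALB/c females), and BWF1 males lie above BALB/c females for Lrp1 and the red pulp sum.

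Lrp1 encodes the large endocytic receptor LRP1 (ENSMUSG00000040249, chr10:127538161-127621148 on the minus strand). Lrp1 had 68.4, 62.9 and 57.5 CPM in the BWF1 females, 84.3, 85.1 and 152.0 CPM in the BWF1 males and 60.4, 62.4 and 59.5 CPM in the BALB/c females. All 3 male libraries lay above all 6 female libraries, and male library 3, the deepest of the series, stood apart from the other 2. The means were 62.9 ± 5.44 CPM in the BWF1 females, 107 ± 38.9 CPM in the BWF1 males and 60.8 ± 1.52 CPM in the BALB/c females (SD, n = 3 each).

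Lrp1 was lower in BWF1 females than in BWF1 males, with a log2 fold change of -0.79 (SE 0.21, adjusted p = 0.0444), and higher in BWF1 males than in BALB/c females, with 0.84 (SE 0.20, adjusted p = 0.0167). Between BWF1 females and BALB/c females the log2 fold change was 0.05, with a 95% interval of -0.38 to 0.48. The female against male call was close to the threshold and was lost in 11 of 21 alternatives. Without BWF1 male 3 the log2 fold change was -0.43 (adjusted p = 0.397), and it was -0.86, -0.79 and -0.73 without BWF1 female 1, 2 or 3, with adjusted p of 0.071, 0.0913 and 0.122. Without BALB/c library 1, 2 or 3 it stayed at -0.79, with adjusted p of 0.051, 0.055 and 0.0617. The call of males against BALB/c females was lost in 6 of 21 alternatives. Its log2 fold change was 0.49 without BWF1 male 3 (adjusted p = 0.295), and 0.83, 0.86 and 0.83 without BALB/c library 1, 2 or 3 (adjusted p of 0.0597, 0.0737 and 0.0644). Within file tags, females stood below males in both, with log2 ratios of -0.44 (1 library each) and -0.91 (2 libraries each).

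The summed level of red pulp macrophage genes was highest in BWF1 males, as was Lrp1, but it followed Lrp1 only in part. The 12 genes of that list, among them Vcam1, C1qa, Hmox1 and Spic, summed to 113 to 170 CPM in the BWF1 females, 327 to 379 CPM in the BWF1 males and 199 to 215 CPM in the BALB/c females. Of its 9 tested genes, 4 were lower in BWF1 females than in BWF1 males and 6 were higher in BWF1 males than in BALB/c females. Hmox1 and Spic did not peak in males. They averaged 44.4 and 5.92 CPM in BWF1 males and 50.9 and 8.82 CPM in BALB/c females. All 12 had counts. The red pulp sums of the female groups did not overlap. Lrp1, by contrast, averaged 62.9 CPM in females of BWF1 and 60.8 CPM in those of BALB/c. Among the males the red pulp sum was highest in BWF1 male 1, at 379 CPM. It was 364 CPM in BWF1 male 3, where Lrp1 peaked at 152.0 CPM. The macrophage gate sum was highest in BWF1 male 3, at 541 CPM, and reached 514 CPM in BWF1 male 1, where Lrp1 had 84.3 CPM. Mean sums of monocyte and T cell genes were highest in BWF1 males too. Monocyte genes averaged 449.4 CPM there, 279.3 CPM in BWF1 females and 407.5 CPM in the BALB/c group. T cell genes averaged 472.8, 288.5 and 396.6 CPM in the same groups. The monocyte list was split. For males against the BALB/c group, 4 of its 8 genes had log2 fold changes above 0, and Spn and Ace were called higher. Spn averaged 200.6 CPM in the males, against 128.1 CPM in the BALB/c group. Nr4a1 went the other way, at 113.7 CPM against 162.2 CPM. Ccr2, Tgfbi and Ms4a6c also averaged higher in the BALB/c group than in the males. The part of any of these cells in the Lrp1 difference was not tested.

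The genes of the cholesterol exporters ABCA1, which hands cholesterol to lipid-poor apolipoprotein A-I, and ABCG1, which hands it to formed HDL particles, are kept as members for their known control by LXR. Neither was called in any of the 3 comparisons. Abca1 (ENSMUSG00000015243, chr4:53030787-53159895, minus strand) had 143.4, 124.2 and 78.0 CPM in the BWF1 females, 96.1, 126.1 and 102.7 CPM in the BWF1 males and 113.6, 94.6 and 103.1 CPM in the BALB/c females. The 3 groups overlapped, and BWF1 females held both the highest and the lowest library. Its log2 fold changes were 0.09 for BWF1 females against BWF1 males (95% interval -0.31 to 0.48), 0.15 for BWF1 females against BALB/c females (-0.25 to 0.55) and 0.06 for the males against BALB/c females (-0.33 to 0.45). None passed the test.

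Abcg1 (ENSMUSG00000024030, chr17:31057675-31117988, plus strand) had 68.4, 45.2 and 84.2 CPM in the BWF1 females, 80.4, 97.4 and 95.8 CPM in the BWF1 males and 47.4, 66.4 and 74.3 CPM in the BALB/c females. All 3 male libraries lay above all 3 BALB/c libraries, and BWF1 female 3 lay among the males. The log2 fold change was -0.48 for BWF1 females against BWF1 males (95% interval -0.93 to -0.04, adjusted p = 0.257) and 0.55 for the males against BALB/c females (0.12 to 0.98, adjusted p = 0.163). It was 0.07 for BWF1 females against BALB/c females (-0.38 to 0.51). None passed the threshold after adjustment over all genes. Without BWF1 female 2 the female against male value was -0.27, and with library size only it was -0.31, and that of males against BALB/c females 0.092. With limma-voom in place of edgeR the adjusted p of males against BALB/c females was 0.031.

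Plin2 encodes perilipin 2, which coats the lipid droplets in which macrophages keep cholesteryl esters (ENSMUSG00000028494, chr4:86648386-86670060, minus strand). Plin2 had 8.82, 8.07 and 6.16 CPM in the BWF1 females, 11.8, 12.3 and 16.7 CPM in the BWF1 males and 15.1, 12.5 and 13.9 CPM in the BALB/c females. All 3 BWF1 female libraries lay below the other 6, but they rest on 4, 5 and 3 counts. The log2 fold change was -0.87 for BWF1 females against BWF1 males (95% interval -1.68 to -0.07, adjusted p = 0.257) and -0.84 for BWF1 females against BALB/c females (-1.65 to -0.03, adjusted p = 0.276). For males of BWF1 against BALB/c females it was 0.04 (-0.61 to 0.69). None of the 3 was called.

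Srebf2 (ENSMUSG00000022463, chr15:82147181-82205379, plus strand) had the narrowest range of the 6 tested members, relative to its level. It had 176.4, 185.5 and 197.1 CPM in the BWF1 females, 186.3, 201.0 and 204.1 CPM in the BWF1 males and 154.5, 185.3 and 189.3 CPM in the BALB/c females. The groups overlapped, and its lowest library was BALB/c female 1. The log2 fold change was -0.08 for BWF1 females against BWF1 males (95% interval -0.39 to 0.22), 0.08 for BWF1 females against BALB/c females (-0.23 to 0.39) and 0.16 for the males against BALB/c females (-0.14 to 0.46). None passed the test.

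Lpl and Nr1h3 did not pass the filter on low counts and were not tested. Lpl encodes lipoprotein lipase, which frees fatty acids from triglyceride-rich particles (ENSMUSG00000015568, chr8:68880491-68907448, plus strand). Lpl had 0, 2 and 0 counts in BWF1 females, 2, 7 and 15 in BWF1 males and 9, 11 and 5 in BALB/c females. Pooled over the libraries of a group, this was 1.28 CPM in BWF1 females (exact 95% Poisson interval 0.155 to 4.63), 3.82 CPM in BWF1 males (2.45 to 5.68) and 6.37 CPM in the BALB/c females (4.13 to 9.41). The interval of BWF1 females overlapped both others. Adipocytes, which make much of this enzyme, left 5 counts in all over 7 marker genes, with Plin1, Cidec and Lep at 0 in every library.

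Nr1h3 (ENSMUSG00000002108, chr2:91184061-91202834, minus strand) had 2, 3 and 7 counts in BWF1 females, 0, 2 and 12 in BWF1 males and 4, 2 and 5 in BALB/c females. The pooled level was 7.69 CPM in BWF1 females (3.97 to 13.4), 2.23 CPM in BWF1 males (1.22 to 3.74) and 2.81 CPM in the BALB/c females (1.40 to 5.02). The interval of BWF1 females lay above that of BWF1 males and overlapped that of BALB/c females. BWF1 female 3 gave 7 of the 12 counts of its group, and BWF1 male 3, the deepest library, gave 12 of the 14 of BWF1 males. These Poisson intervals rest on summed counts, so they cover counting error only and not the spread between mice. The reads carried no molecular identifiers, so copies of the same molecule could not be told apart in the counts. Nr1h3 shares 34 exon bases with Gm13783 on the same strand, which was not among the genes counted.

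**Figure D3:**
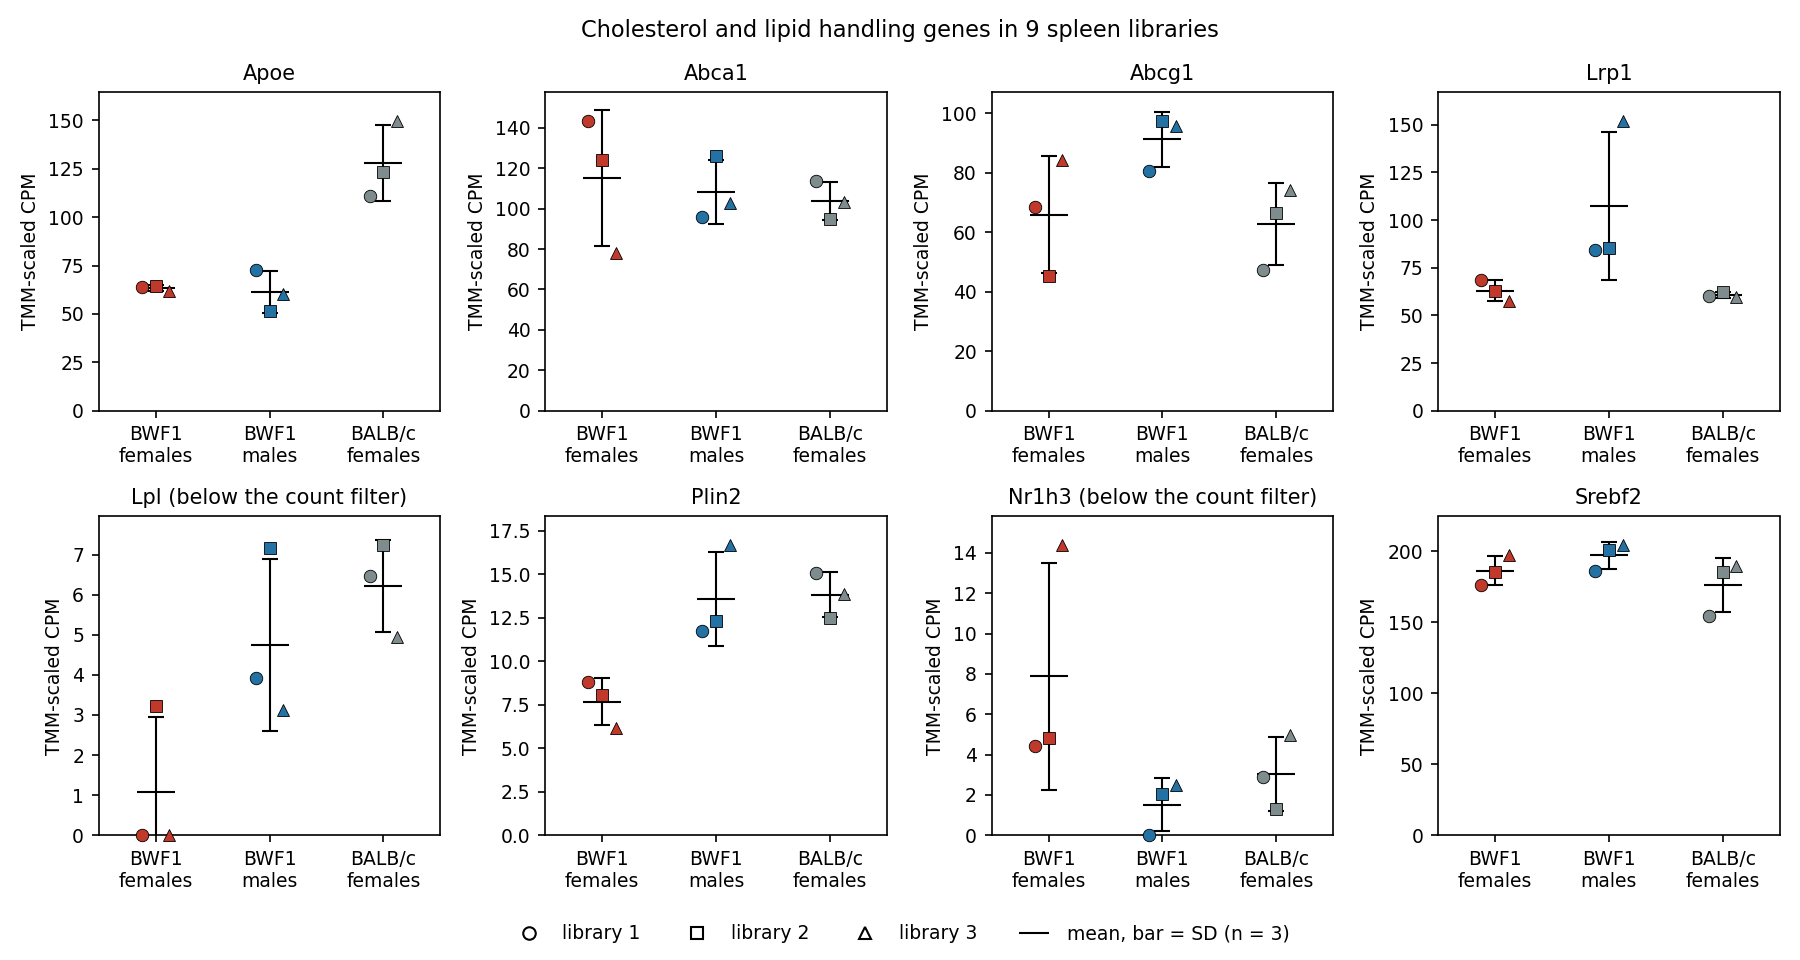
TMM-scaled CPM of the 8 members in each library, by group, with the mean and SD (n = 3). Apoe is lower in both BWF1 groups than in the BALB/c group, Lrp1 is highest in BWF1 males with library 3 at 152.0 CPM, and the groups overlap for Abca1 and Srebf2.

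Of the 6 members tested, 1 was called in BWF1 females against BWF1 males (Lrp1, lower), where 2.19% of all tested genes were called. In BWF1 females against BALB/c females 1 member was called (Apoe, lower), where the share of all genes was 3.82%. In BWF1 males against BALB/c females 2 were called (Apoe lower, Lrp1 higher), where the share was 3.52%. The groups did not overlap for 2 of 6 members in BWF1 females against BWF1 males, against 18.7% of all tested genes, and for 2 of 6 in BWF1 females against BALB/c females, against 21.2%. For males of BWF1 against BALB/c females it was 3 of 6, against 23.5%. The members' median log2 fold change was -0.28, 0.06 and 0.11 in these comparisons, in this order, beside medians of all tested genes of 0.000638, -0.00236 and -0.00283. These comparisons share groups of libraries, so their values are not independent of one another.

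**Figure D4:**
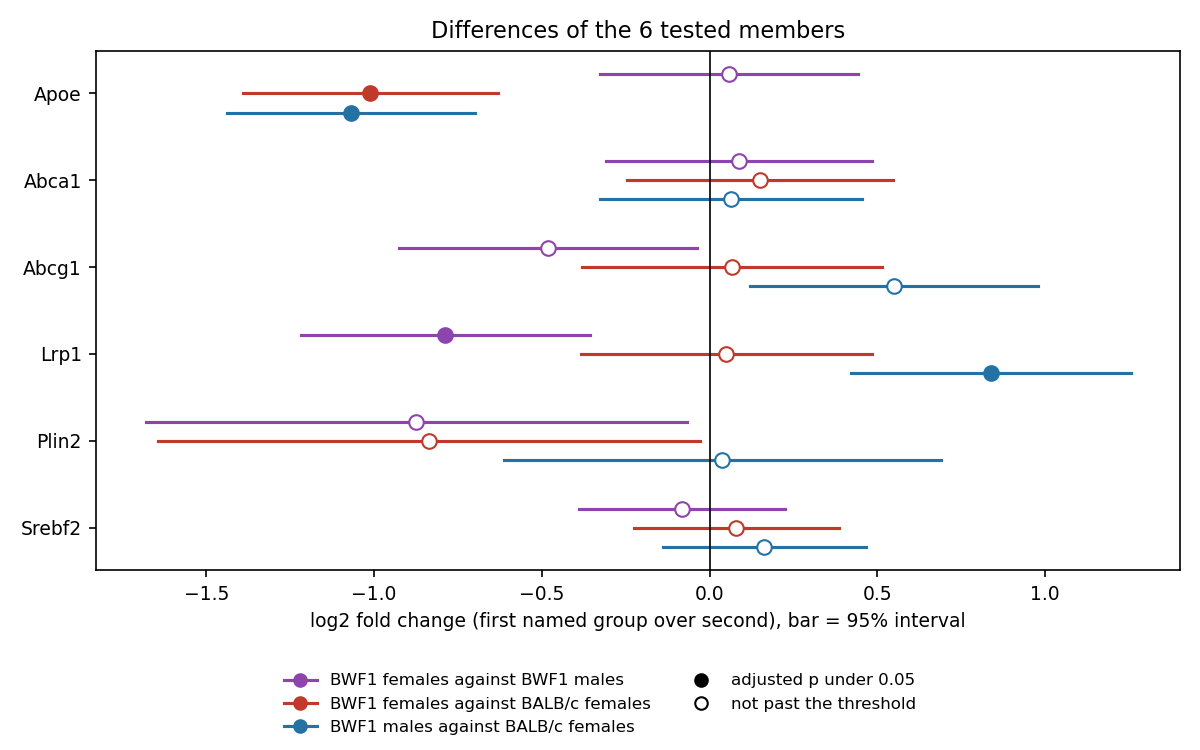
Log2 fold changes of the 6 tested members with 95% intervals, for the 3 comparisons, filled where the adjusted p is under 0.05. Apoe lies near -1 in both comparisons with BALB/c females, and Lrp1 is below 0 for BWF1 females against BWF1 males and above 0 for males of BWF1 against BALB/c females.

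None of the tested genes of cholesterol synthesis was called. That list had 21 genes, of which 8 were tested and 0 were called in any of the 3 comparisons by edgeR. All 21 alternatives, DESeq2 and limma-voom among them, also called 0. Of all 7719 tested genes, 1266, 1308 and 1260 had an unadjusted p under 0.05 in the 3 comparisons. In this list it was under 0.05 in 0, 0 and 1 of the 8 genes. The 1 was Dhcr7, which makes cholesterol from 7-dehydrocholesterol. Dhcr7 had 23.5, 17.4 and 18.9 CPM in the BWF1 males and 9.34, 15.8 and 8.92 CPM in the BALB/c females, a log2 fold change of 0.76 with an adjusted p of 0.228.

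Of 11 genes that sense and regulate sterol, 9 were tested. In BWF1 females against BALB/c females 1 was called, Stard4, a carrier of sterol between membranes that SREBP-2 is known to raise. Stard4 had 33.1, 42.0 and 22.6 CPM in BWF1 females and 13.7, 15.1 and 9.91 CPM in the BALB/c females. It rose by 1.32 on the log2 scale (SE 0.30, adjusted p = 0.00895). In BWF1 males, with 19.6, 29.7 and 27.1 CPM, the log2 fold change against BALB/c females was 0.99 (adjusted p = 0.0519), which passed the threshold in 10 of 21 alternatives. The female call was lost without BWF1 female 2 (1.09, adjusted p = 0.076) and without BALB/c library 3 (1.19, adjusted p = 0.0541). In BWF1 males against BALB/c females Scap was called, which carries the SREBP factors to where they are cut. Scap had 156.9, 113.8 and 99.1 CPM in the BWF1 males and 44.6, 61.1 and 72.4 CPM in the BALB/c females, and it rose by 1.04 (SE 0.20, adjusted p = 0.00227). In BWF1 females against BWF1 males 0 of 9 were called, with 1 at an unadjusted p under 0.05. The median log2 fold change of the list was -0.19, -0.03 and 0.14 in the 3 comparisons.

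Of 16 partners and targets of LXR, 13 were tested and 0 were called in any comparison. The unadjusted p was under 0.05 in 4, 3 and 2 of the 13, beside 1266, 1308 and 1260 of all 7719 tested genes. The lowest p belonged to Scd1, the stearoyl-CoA desaturase, with 280.1, 330.7 and 275.1 CPM in BWF1 females and 442.0, 415.3 and 385.6 CPM in the BALB/c females. Its log2 fold change was -0.49 (SE 0.15, adjusted p = 0.0648). The groups did not overlap, which held for 21.2% of all tested genes in this comparison. It passed the threshold without the filter, with limma-voom and without BWF1 male 1, with adjusted p of 0.0489, 0.0398 and 0.0324.

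Among 16 lipoprotein and scavenger receptors other than Lrp1, 10 were tested and 1 was called, Stab2, a scavenger receptor known from the endothelium of liver and spleen sinuses. Stab2 had 6.62, 17.8 and 16.4 CPM in BWF1 females and 33.8, 34.2 and 39.7 CPM in the BALB/c females. It fell by 1.36 on the log2 scale (SE 0.30, adjusted p = 0.00748). The call was lost with DESeq2 (adjusted p = 0.0531) and with the file tag as a covariate (0.0917). In the other 2 comparisons 0 of 10 were called by this fit and by DESeq2, with 0 genes for BWF1 females against BWF1 males and 1 for males of BWF1 against BALB/c females at an unadjusted p under 0.05. In males against BALB/c females 1 gene was called in 5 of 21 alternatives, Stab2 in 4 of them, limma-voom included. Among the endothelial genes of the marker lists Kdr, the VEGF receptor 2, was called lower as well. Kdr had 2.21, 9.68 and 6.16 CPM in the BWF1 females and 20.8, 24.3 and 16.9 CPM in the BALB/c females. It fell by 1.71 (log2, adjusted p = 0.0177). Cdh5, the endothelial cadherin, had a log2 fold change of -1.50 (adjusted p = 0.0991) and Pecam1 of -0.20 (adjusted p = 0.617), and neither was called. The summed stromal and endothelial level was 126 to 166 CPM in the BWF1 females and 165 to 196 CPM in the BALB/c females, and its part in the Stab2 value was not tested.

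Lysosomal lipid handling was the lipid list with the most genes called over the 3 comparisons in this fit. All 12 of its genes were tested, and in BWF1 females against BWF1 males 2 were lower, Ctsd and Psap, the lysosomal protease cathepsin D and the precursor of the saposins that help break down sphingolipids. Ctsd had 44.1, 40.3 and 80.1 CPM in BWF1 females and 135.3, 96.4 and 104.7 CPM in BWF1 males. It fell by 1.03 (log2, SE 0.22, adjusted p = 0.0117), with -0.91 and -0.85 (adjusted p of 0.0617 and 0.0636) without BWF1 female 1 or 2. Psap had 542.5, 608.2 and 562.6 CPM in BWF1 females and 917.9, 765.9 and 853.1 CPM in BWF1 males. It fell by 0.57 (log2, SE 0.14, adjusted p = 0.0282). That call was lost without BWF1 female 1, 2 or 3 (adjusted p of 0.0849, 0.0502 and 0.0681) and without BWF1 male 1 or 3 (0.0554 and 0.113), at log2 fold changes of -0.62 to -0.49.

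All 12 log2 fold changes of this list were below 0 in BWF1 females against BWF1 males, with a median of -0.44. With library size as the only scaling 11 of 12 were below 0 and 12 of 12 below the median of all genes. In BWF1 females against BALB/c females 11 of 12 were below 0, with a median of -0.40, and 1 was called, Gm2a, the activator protein for breakdown of the ganglioside GM2. Gm2a had 105.9, 117.8 and 110.9 CPM in BWF1 females and 193.3, 189.9 and 203.2 CPM in the BALB/c females. It fell by 0.81 (log2, SE 0.16, adjusted p = 0.00272), and the groups did not overlap, as for 21.2% of all tested genes. In BWF1 males against BALB/c females 0 of 12 were called by this fit and by DESeq2, and 1 or 2 in 6 of 21 alternatives (Ctsd in all 6, and 2 genes with limma-voom), with 3 at an unadjusted p under 0.05. The macrophage gate sum, given above, was also lowest in BWF1 females. Monocyte genes summed to 265 to 298 CPM in the BWF1 females, 431 to 471 CPM in the BWF1 males and 388 to 435 CPM in the BALB/c females, and T cell genes to 236 to 362, 456 to 494 and 323 to 461 CPM in the same groups. In BWF1 females against BWF1 males 2 of 8 monocyte genes and 4 of 7 T cell genes were called lower, 0 of 6 neutrophil genes were called at a median of -0.89, and 1 of 7 erythroid genes was called higher at a median of 2.05. The part of these cells in the lysosomal values was not tested.

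Of 18 genes of lipid droplets and esterification, 11 were tested and 0 were called, here and in all 21 alternatives, with 2, 2 and 0 at an unadjusted p under 0.05 in the 3 comparisons. The lowest p belonged to Pnpla2, the adipose triglyceride lipase, with 19.9, 24.2 and 16.4 CPM in BWF1 females and 29.4, 36.9 and 36.2 CPM in BWF1 males. Its log2 fold change was -0.76 (SE 0.27, adjusted p = 0.148). Of 16 genes of lipoprotein lipase maturation and fatty acid uptake, 9 were tested. Sel1l, an adaptor of the endoplasmic reticulum needed for lipoprotein lipase to mature in mice, was called in BWF1 males against BALB/c females. Sel1l had 131.4, 101.5 and 100.2 CPM in the BWF1 males and 64.0, 64.4 and 70.4 CPM in the BALB/c females. It rose by 0.74 (log2, SE 0.19, adjusted p = 0.0224). The call was lost with the file tag as a covariate (adjusted p = 0.116), without BWF1 male 1 (0.0666) and without BALB/c library 1, 2 or 3 (0.0834, 0.116 and 0.0527), at log2 fold changes of 0.60 to 0.79. In the comparisons of BWF1 females 0 of 9 were called, with 1 and 2 genes at an unadjusted p under 0.05.

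**Figure D5:**
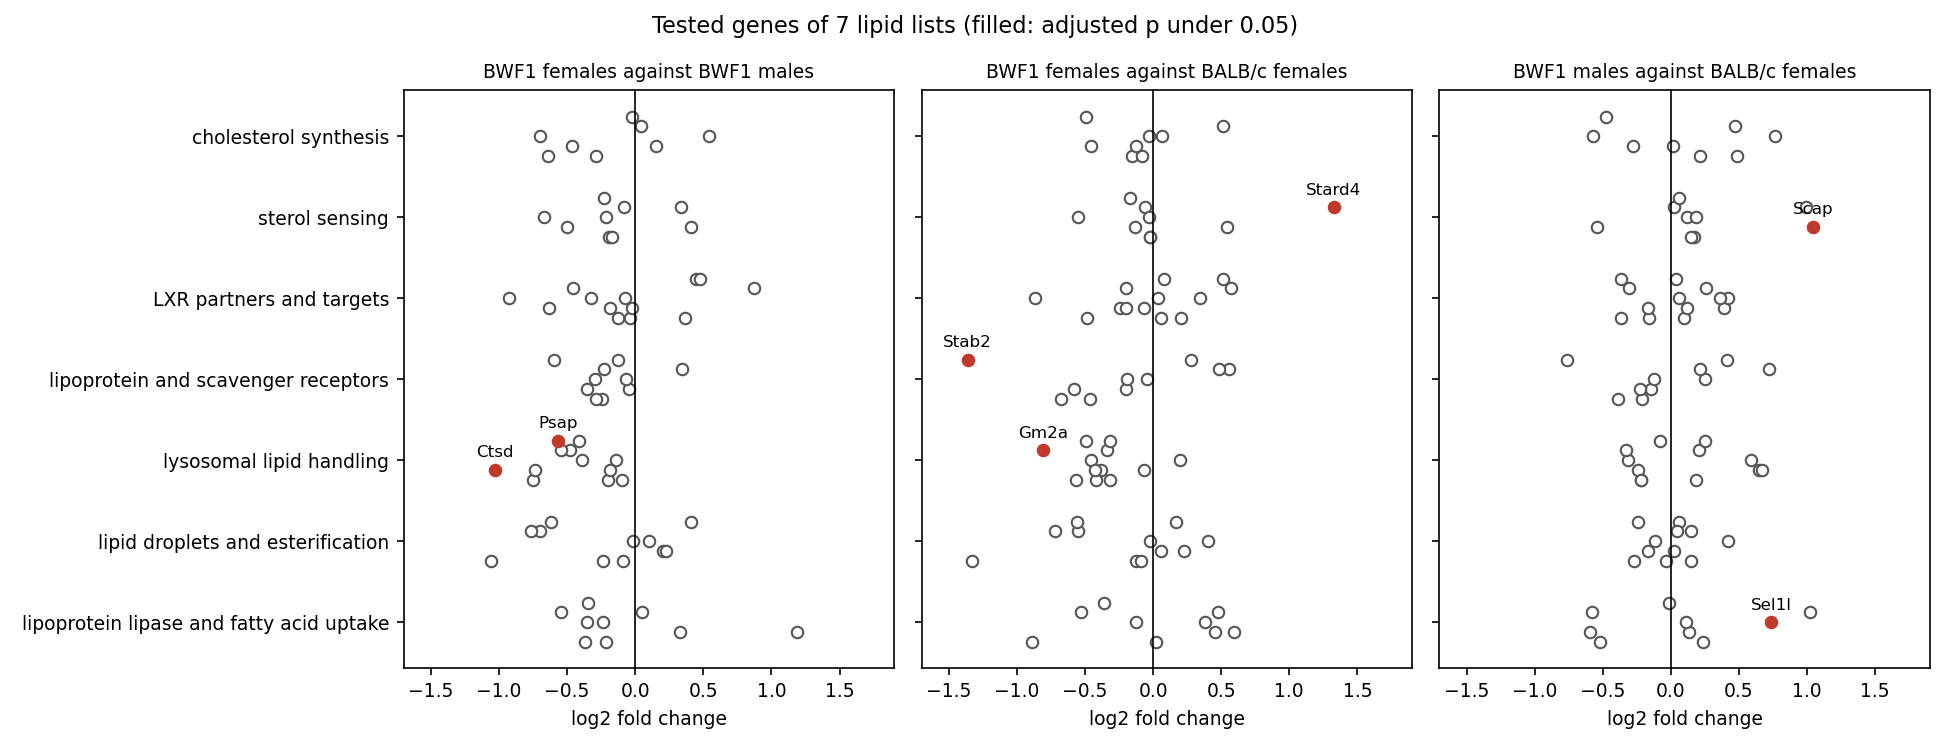
Log2 fold change of every tested gene of the 7 lists in the 3 comparisons, 1 point a gene, filled and named where the adjusted p is under 0.05. Heights within a list are spread for legibility. In the lysosomal list all 12 points lie left of 0 for BWF1 females against BWF1 males.

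The genes with the pattern most like each member were ranked by Pearson r of log2(CPM + 1) over the 9 libraries, among 4742 other tested genes with a mean of at least 20 CPM, as a description that follows group differences, depth and shared cells alike. Apoe was most like Ftl1 (r = 0.978), the ferritin light chain, followed by Il9r (0.959), Hspa1a (0.957), Ppp1r15a (0.956) and Hspa1b (0.954). Hspa1a and Hspa1b are near-identical heat shock genes of the handling list, and Ftl1 has many processed copies in the genome. Reads shared by such copies can fall among the alignments that were not unique, which were left out. Lrp1 was most like Atp1b3 (0.909), Notch2 (0.906), Itgal (0.901), Ppm1h (0.883) and Notch1 (0.879). Abca1 was most like S100pbp (0.916), Zmym5 (0.900), Arl5a (0.899), Gart (0.882) and Stag2 (0.882). Abcg1 was most like Sh3bgrl3 (0.915), Rfx1 (0.912), Spib (0.906), B3gnt8 (0.901) and Prex1 (0.895). Srebf2 was most like Eif4ebp2 (0.946), Actn4 (0.919), Cbfa2t3 (0.908), Ahdc1 (0.892) and Alkbh5 (0.886). No member was among the 5 genes most like another member. The nearest pair of members was Abcg1 and Srebf2 (0.769), and Apoe had r of -0.470 with Lrp1 and -0.222 with Abca1.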

How the data were processed

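RNA sequencing libraries of spleen cells came from 9 mice in 3 groups of 3, grouped by the sample titles. The deposited values are raw read counts per Ensembl gene. The submitters' processing notes name FastQC 0.10.1, STAR 2.6 and mm10, and the layout of the files is that of HTSeq. Per the labels' protocols ribosomal RNA was depleted. The annotation, the counting settings and the use of strand are not given in the sources used here, so reads of overlapping genes cannot be told apart. In each file 5 summary lines were left out of totals: 37.2% to 42.1% of alignments overlapped no gene and 55.9% to 61.5% were not unique, which left 1.29% to 2.82% in counted genes. GENCODE M21 gave names, exon lengths and untranslated regions (21939 of 21965 identifiers matched).

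The tests used edgeR 4.0.16 (R 4.3.3): filterByExpr with a minimum count of 10 (7719 genes kept, 14246 set aside), TMM scaling, and a quasi-likelihood fit of all 9 libraries by group. The Benjamini-Hochberg adjustment ran over all genes kept, and calls were made under 0.05. The SE is the log2 fold change divided by the square root of F. The procedure was tested on simulated counts. Between replicates the chi-square per degree of freedom was 1.27 to 2.77, so none were merged. The labels do not say whether mice were housed or processed together. The 21 alternatives comprise 9 that leave out 1 library each and 12 others, among them DESeq2 1.42.0 and limma-voom (limma 3.58.1). The fit with legacy dispersion and both looser motifs were added after seeing the data.

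The members, the 7 lipid lists and the marker lists were chosen with earlier results of these data known. All members are named, as are up to 3 called genes a direction, comparison and list with the lowest p, or the gene with the lowest p where a list has none called, and the 5 genes most like each member with a mean of at least 20 CPM.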

Additional observations from a re-analysis of the deposited data

How the results depend on the processing

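The comparisons are named F-M (BWF1 females against BWF1 males), F-B (BWF1 females against BALB/c) and M-B (BWF1 males against BALB/c). Apoe kept its F-B and M-B calls under every alternative run. Genes called were 169 in F-M, 295 in F-B and 272 in M-B. Library size only gave 59 in F-M and 130 in F-B, and DESeq2 gave 105 and 169. No filter gave 304 in F-M and 510 in M-B, and only the 2 groups compared gave 98 in F-M. The file tag as covariate gave 160 in F-B and 153 in M-B. In M-B, 433 were called without Lars2, 650 with limma-voom and 484 with the legacy dispersion fit. Leaving out 1 library gave 58 to 198 in F-M, 184 to 370 in F-B and 119 to 393 in M-B; the lowest came without BWF1 male 3 (58 in F-M), BALB/c library 1 (184 in F-B) and BALB/c library 2 (119 in M-B).

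Members called in F-M were 0 with library size only, DESeq2, only the 2 groups and the replicate block, and 0 to 1 without 1 library. In M-B they were 1 with library size only and with the file tag, and 1 to 2 without 1 library. The replicate block called 118 genes and 0 members in F-M, 255 and 1 in F-B, and 240 and 2 in M-B, and ended the F-M calls of Lrp1 and Psap (adjusted p = 0.0816 and 0.0514). Same-numbered libraries correlated at -0.0895 to 0.0576, so the numbers were not taken as pairs.

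Library size only moved the median gene by 0.16 in F-M, -0.29 in F-B and -0.45 in M-B, and the share of higher calls to 76.3%, 17.7% and 9.49%, against 43.8%, 46.8% and 47.4%. It took uncalled members across 0: Srebf2 to 0.10 in F-M, then Abca1 to -0.13, Abcg1 to -0.22, Lrp1 to -0.24 and Srebf2 to -0.21 in F-B, and Abca1 to -0.38, Plin2 to -0.34 and Srebf2 to -0.31 in M-B. The file tag took Abcg1 and Lrp1 to -0.12 each in F-B and Plin2 to -0.0660 in M-B. It ended the M-B call of Lrp1 (0.65), as library size only did (0.44). Library size only also ended the calls of Stard4, Gm2a, Ctsd, Psap, Scap and Sel1l. Without 1 library, uncalled log2 fold changes crossed 0 for Apoe (-0.051 to 0.18) and Abca1 (-0.10 to 0.30) in F-M, for Abca1 (-0.028 to 0.37), Abcg1 (-0.15 to 0.29), Lrp1 (-0.0091 to 0.12) and Srebf2 (-0.00864 to 0.14) in F-B, and for Abca1 (-0.062 to 0.13) and Plin2 (-0.18 to 0.13) in M-B. Called genes per list ranged from 0 to 3. The cause was not tested.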
